A study of Glycine max with 20 samples.

Results

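The genes described here are 3 predicted auxin transporters of soybean: Glyma.15G208600, named GmPIN2b in the study, and Glyma.02G008000 and Glyma.10G137600, both homologs of the Arabidopsis transporter PGP4. They were chosen by name, as the auxin transport genes that the study singled out, and they are 3 of the 56044 genes with values. The study compared seed coats of UC413, a Clark isoline with a minute hilum, and UC7, the standard Clark 63 line. The hilum is the scar where the seed was attached to the pod. RNA was sequenced from the extended hilum (EH) region, which is the hilum with a small area around it, and from whole seed coats (WS). Seeds were staged by fresh weight as 10 to 25 mg (EH10, WS10), 25 to 50 mg (EH25, WS25), 50 to 100 mg (EH50, WS50) and 100 to 200 mg (EH100). EH10, EH25 and EH50 had 2 libraries for each isoline, and EH100, WS10, WS25 and WS50 had 1 for each isoline, which gave 20 libraries. The genotype of UC413 is i-i R t mi G and that of UC7 is i-i R T Mi g, so both share i-i and R. UC413 carries the mi, t and G alleles together after repeated backcrossing into Clark 63, and the effect of mi cannot be told apart from that of t, of G or of other introgressed sequence. All plants were grown in a greenhouse, and the replicates are described as independent.

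Auxin moves between cells in a directed way because its carriers sit unevenly in the plasma membrane. PIN proteins export auxin and their position in the cell sets the direction of flow, AUX1 and LAX proteins import it, and ATP-driven transporters of the ABCB family, which include PGP4, move it as well. In Arabidopsis, PIN2 is known for its role in root gravitropism, and PGP4 (ABCB4) for auxin transport in the root. Auxin also takes part in the growth of the ovule and seed coat.

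GmPIN2b is a model of 1479 coding bases in a transcript of 1891 bases. It is annotated with the membrane transport domain of PIN proteins (PF03547), and its best Arabidopsis hit is AT5G57090, which is PIN2. The model codes for 492 residues, while 2 other genes with the same best hit, Glyma.13G101900.1 and Glyma.17G057300.1, have coding lengths of 1929 and 1914 bases. Those 2 genes reached at most 0.287 and 0.329 RPKM (read alignments adjusted for the length of the model and for the total of the library) in any library, and the other 3 genes with this hit reached at most 0.0062 RPKM, so GmPIN2b had the highest levels of the genes with this hit in these seed coats. The RefSeq annotation of the Glycine_max_v4.0 assembly gives the symbols PIN2A and PIN2B to genes on chromosomes 13 and 17, so the study's name for the gene on chromosome 15 is kept here as a label only.

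Both PGP4 homologs have 3849 coding bases, with transcripts of 4383 bases for Glyma.02G008000.1 and 4314 bases for Glyma.10G137600.1, and carry the membrane-spanning (PF00664) and ATP-binding (PF00005) domains of an ABC transporter. Their best Arabidopsis hit is AT2G47000, which is PGP4. Each was at or above 1 RPKM in all 20 libraries, as GmPIN2b was. Among the other genes with this hit, Glyma.13G118600.1 reached 0.892 RPKM and Glyma.17G041300.1 reached 0.701 RPKM at most, and Glyma.06G189300.1, a short model of 285 bases, passed 1 RPKM in 1 library. A read could align to up to 25 models with up to 3 mismatches, so reads shared by the PGP4 pair counted for both, and their levels are not fully separate measurements. The other splice forms (1 of GmPIN2b and 2 of Glyma.10G137600) gave nearly the same values as the first form and are not described further.

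The libraries held 91768975 to 128803969 alignments. A level rested on at least 246 alignments for GmPIN2b, 1573 for Glyma.02G008000.1 and 1107 for Glyma.10G137600.1, and the widest 95% exact Poisson interval reached 12.7%, 4.97% and 5.94% from the value, which covers counting error only. Models of a ribosomal DNA region took 0.386% to 1.03% of the alignments in UC413 libraries and 0.676% to 44.4% in UC7 libraries, with the highest share in UC7 EH10 replicate 1. RPKM is a share of all alignments. Ratios of UC413 to UC7 were taken over models above 0 in both isolines, with a mean of at least 1 RPKM in either. Their median log2 value as deposited was 0.76 in EH10, 0.34 in EH25 and 0.27 in EH50 libraries. Levels are therefore also given as scaled RPKM, which is RPKM over a library size factor, the median ratio of that library's models to their geometric means across libraries. After scaling these medians were -0.028, -0.023 and -0.013. Differences below are on scaled values unless RPKM as deposited is named, and are fitted on log2(scaled RPKM + 0.25), which understates the change of low genes. In a bulk sample, fewer cells of a type and less RNA per cell cannot be told apart. The summed scaled RPKM of 33 phloem marker genes was 36.2 to 62.3 in UC413 and 61.4 to 99.7 in UC7 over EH10 to EH50, that of 18 proanthocyanidin layer markers was 264 to 1289 in UC413 and 710 to 1849 in UC7, and that of 22 xylem markers was 198 to 658 in UC413 and 103 to 612 in UC7. Xylem sums at EH10 were 209 and 198 in UC413, against 103 and 126 in UC7, without overlap. Those at EH25 overlapped, with 262 and 408 in UC413 and 315 and 259 in UC7. Those at EH50 lay closer together, with 640 and 658 in UC413 and 612 and 562 in UC7. No marker gene of the phloem, proanthocyanidin layer and xylem lists was at 0 in every library. The part of tissue makeup in the isoline differences was not tested.

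GmPIN2b was higher in UC413 than in UC7 in each of the 7 tissues sampled, on both scales. At EH10 it had 7.47 and 5.83 RPKM in UC413, against 2.11 and 1.81 RPKM in UC7. After scaling these were 6.48 and 4.95 in UC413, against 3.87 and 2.24 in UC7. The groups did not overlap, and the fitted difference on the log2 scale was 0.89 (1.85-fold) after scaling and 1.64 on RPKM as deposited. Because the gene was named for its level at EH10 in these libraries, this is a description with no test. Over all models tested, both UC413 libraries lay above both UC7 libraries for 27.5% after scaling and for 83.8% as deposited. Without UC7 EH10 replicate 1, the library with the most ribosomal DNA alignments, the difference was 1.25, and without UC7 EH10 replicate 2 it was 0.52.

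At EH25 scaled GmPIN2b was 3.83 and 8.67 in UC413 and 2.50 and 3.71 in UC7. The lower UC413 library was just above the higher UC7 library, and the difference of 0.87 (SE 0.38, 95% interval 0.03 to 1.71, 1.83-fold) did not pass (limma adjusted p = 0.251). It rested largely on UC413 EH25 replicate 2, without which it was 0.30 (adjusted p = 0.756). On RPKM as deposited the difference was 1.21 and passed (limma adjusted p = 0.0411). On that scale 3.68% of all models were called higher and 0.499% lower, and the median difference of all models was 0.32. At EH50 scaled levels were 8.21 and 8.66 in UC413 and 4.50 and 7.18 in UC7, again without overlap, and the difference was 0.54 (SE 0.38, interval -0.30 to 1.39, adjusted p = 0.383). It was 0.22 without UC7 EH50 replicate 1 and 0.86 without UC7 EH50 replicate 2. Of all models tested, 1.46% were called higher in UC413 at EH25 and 4.41% at EH50, while none of the 3 transporters was called in either direction at either stage (0.747% and 3.66% of all models were called lower). Both UC413 libraries lay above both UC7 libraries for 22.5% of all models at EH25 and 31.3% at EH50. The isoline difference at EH50 minus that at EH25 was -0.33 (SE 0.53, adjusted p = 1.0 when rounded), so a change in it with stage was not detected for GmPIN2b. That contrast called 0 of 57568 models with limma, and at an unadjusted p under 0.05 it had 498 higher and 1338 lower.

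In the older and the whole seed coat libraries, scaled GmPIN2b was 7.52 in UC413 and 3.64 in UC7 at EH100, a ratio of 2.07 between single libraries. It was 4.07 in UC413 and 3.11 in UC7 at WS10, 3.49 in UC413 and 1.25 in UC7 at WS25, and 6.62 in UC413 and 1.93 in UC7 at WS50. The ratio of UC413 to UC7 between these single libraries was 1.31 at WS10, 2.80 at WS25 and 3.43 at WS50. Both WS50 libraries had a non-stranded kit and the other whole seed coat libraries a stranded kit. Stage and kit therefore cannot be told apart at WS50, and a trend with seed weight was not tested. Averaged over the 3 stages the difference was 1.11 (SE 0.26, interval 0.48 to 1.75, 2.16-fold), with an unadjusted p of 0.0055 and a limma adjusted p of 0.462 in a fit with 2 residual degrees of freedom. Of all models tested there, 0.0159% were called higher and 0.00177% lower in UC413. Without either WS50 library the difference was 0.84. With stage as a term, the WS50 library that remained told nothing about the isolines. Both fits therefore rested on WS10 and WS25 alone, without the stage of the largest ratio, and no call is read from them. Without each of the other libraries in turn the difference did not pass. UC413 was above UC7 in all 7 tissues, without overlap where there were replicates, for 4.35% of all models. These tissues include EH10, so the share is a description, and GmPIN2b was the member of the 3 that showed this.

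Scaled GmPIN2b spanned 6.94-fold over the 20 libraries, the widest range of the 3 genes, with a median of 3.97. The lowest groups were UC7 WS25 (1.25), UC7 WS50 (1.93), UC7 EH10 (3.06 ± 1.15, SD, n = 2) and UC7 EH25 (3.11 ± 0.86, SD, n = 2). The highest were UC413 EH50 (8.43 ± 0.32, SD, n = 2) and the single libraries of UC413 EH100 (7.52) and UC413 WS50 (6.62). Between them UC413 EH10 (5.71 ± 1.08), UC7 EH50 (5.84 ± 1.89) and UC413 EH25 (6.25 ± 3.43, SD, n = 2 each) overlapped in range.

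**Figure D1:**
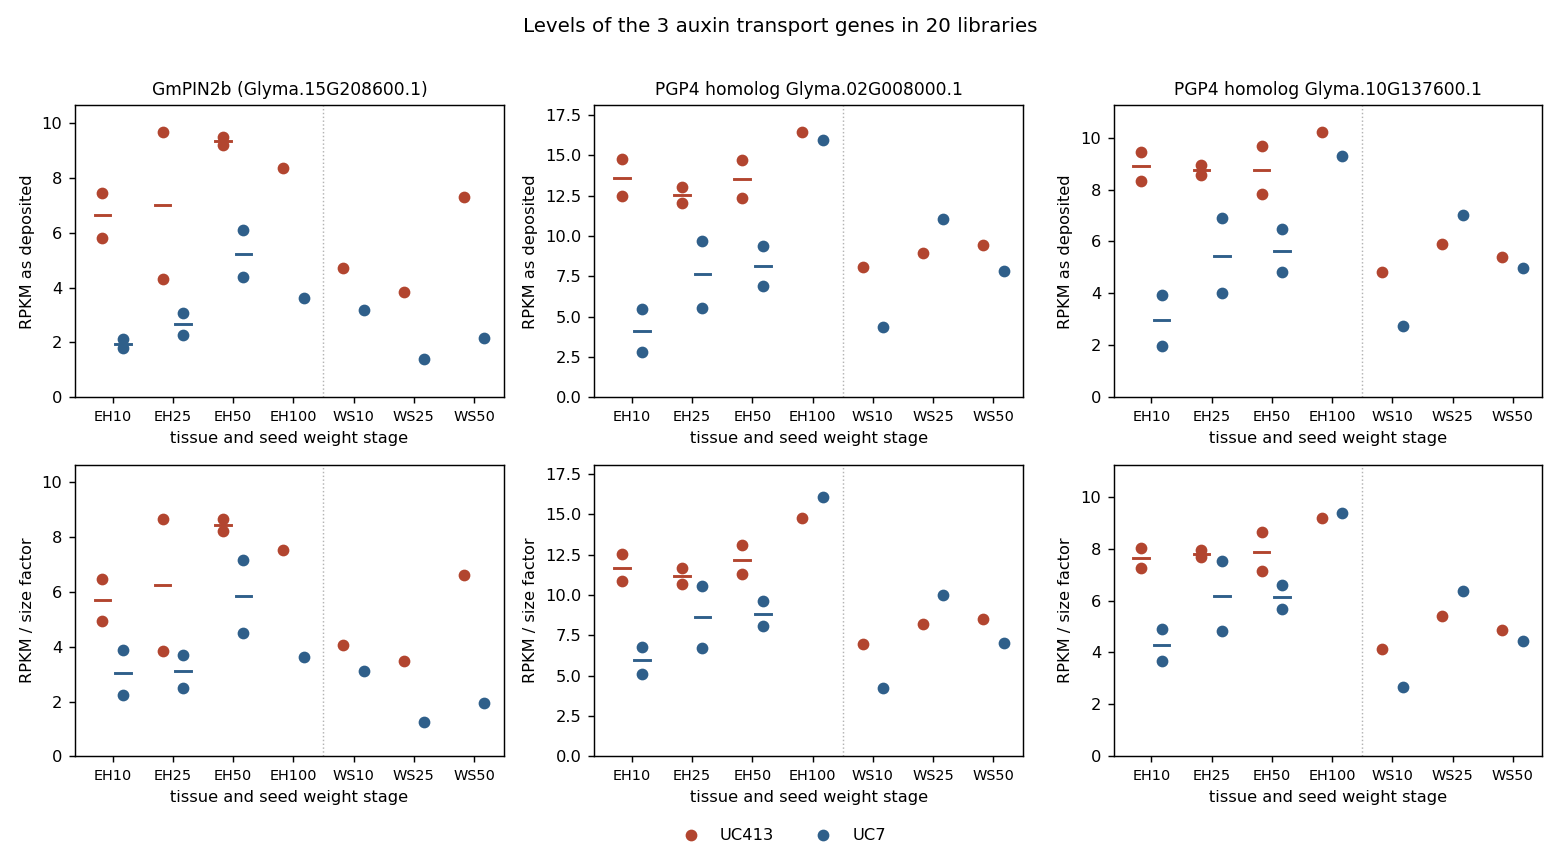
Levels of GmPIN2b, Glyma.02G008000.1 and Glyma.10G137600.1 in each of the 20 libraries (points) as deposited (upper panels, RPKM) and after division by the size factor (lower panels), with UC413 left of UC7 at each stage and a short line at the mean where there were 2 libraries. GmPIN2b lies higher in UC413 in every tissue, while the PGP4 homologs of UC7 lie above those of UC413 at WS25 on both scales and at EH100 after scaling.

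Glyma.02G008000.1 had 12.5 and 14.7 RPKM in UC413 at EH10, against 2.79 and 5.48 RPKM in UC7. After scaling it had 10.9 and 12.5 in UC413, against 5.11 and 6.80 in UC7. The groups were well apart on both scales, with a fitted difference of 0.96 (1.94-fold) after scaling and of 1.73 as deposited, again as a description with no test. Without UC7 EH10 replicate 1 it was 0.76. At EH25 scaled levels were 10.7 and 11.7 in UC413 and 10.6 and 6.73 in UC7, so 1 UC7 library came close to the UC413 pair, and the difference was 0.39 (SE 0.21, interval -0.08 to 0.87, adjusted p = 0.348). It was 0.08 without UC7 EH25 replicate 2 and 0.71 without UC7 EH25 replicate 1. At EH50 they were 13.1 and 11.3 in UC413 and 9.61 and 8.10 in UC7, with a difference of 0.45 (SE 0.21, interval -0.03 to 0.93, adjusted p = 0.207).

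In the tissues with single libraries the isolines did not keep this order throughout. At EH100 Glyma.02G008000.1 was at 14.8 in UC413 and 16.1 in UC7 after scaling, and at 16.4 RPKM in UC413 and 16.0 RPKM in UC7 as deposited. Markers of the embryo or cotyledon (16 genes) summed to 245 scaled RPKM in UC413 EH100 and 785 in UC7 EH100, against at most 89.6 in any other library, and their part in the EH100 levels was not tested. In whole seed coats Glyma.02G008000.1 was at 6.96 in UC413 and 4.26 in UC7 at WS10, at 8.18 in UC413 and 10.0 in UC7 at WS25, and at 8.53 in UC413 and 7.01 in UC7 at WS50. The average whole seed coat difference was 0.22 (SE 0.20, interval -0.28 to 0.72, adjusted p = 0.999), and it ran between -0.0053 without UC413 WS10 and 0.47 without either WS25 library. Its levels spanned 3.78-fold, with UC7 WS10 (4.26) and UC7 EH10 (5.96 ± 1.20, SD, n = 2) lowest and UC413 EH100 (14.8) and UC7 EH100 (16.1) highest. The UC413 groups of EH10, EH25 and EH50 followed each other closely and overlapped, at 11.7 ± 1.19, 11.2 ± 0.69 and 12.2 ± 1.31 scaled RPKM (SD, n = 2 each).

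Glyma.10G137600.1 had the same pattern at lower levels. At EH10 it had 8.34 and 9.46 RPKM in UC413 and 1.99 and 3.95 RPKM in UC7, which after scaling were 7.24 and 8.04 in UC413 and 3.66 and 4.91 in UC7. The fitted difference, a description with no test, was 0.82 (1.76-fold) after scaling, 1.57 as deposited, and 0.62 without UC7 EH10 replicate 1. At EH25 scaled levels were 7.93 and 7.69 in UC413 and 7.52 and 4.85 in UC7 (difference 0.36, SE 0.21, adjusted p = 0.381), and without UC7 EH25 replicate 2 or 1 the difference was 0.05 or 0.66. At EH50 they were 8.63 and 7.13 in UC413 and 6.62 and 5.67 in UC7 (difference 0.34, SE 0.21, adjusted p = 0.320). This difference was 0.20 without UC413 EH50 replicate 1, 0.23 without UC7 EH50 replicate 2 and at most 0.47 with any 1 library left out. The groups did not overlap at any of these stages, which held for all 3 transporters, and for 13.4% of all models tested. EH10 is among these stages, so nothing is read from that count.

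At EH100 Glyma.10G137600.1 was at 9.20 in UC413 and 9.36 in UC7 after scaling, and at 10.2 RPKM in UC413 and 9.29 RPKM in UC7 as deposited, so the order of the isolines depended on the scale. In whole seed coats it was at 4.15 in UC413 and 2.67 in UC7 at WS10, at 5.40 in UC413 and 6.36 in UC7 at WS25, and at 4.88 in UC413 and 4.43 in UC7 at WS50, with an average difference of 0.17 (SE 0.18, interval -0.28 to 0.61, adjusted p = 0.999), which ran between -0.05 without either WS10 library and 0.36 without either WS25 library. Whole seed coats of UC413 thus held more of both PGP4 homologs at WS10, less at WS25 and slightly more at WS50. For the PGP4 pair, the isoline difference at EH50 minus that at EH25 was 0.05 (SE 0.30) for Glyma.02G008000.1 and -0.02 (SE 0.29) for Glyma.10G137600.1, both with adjusted p = 1.0 when rounded.

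**Figure D2:**
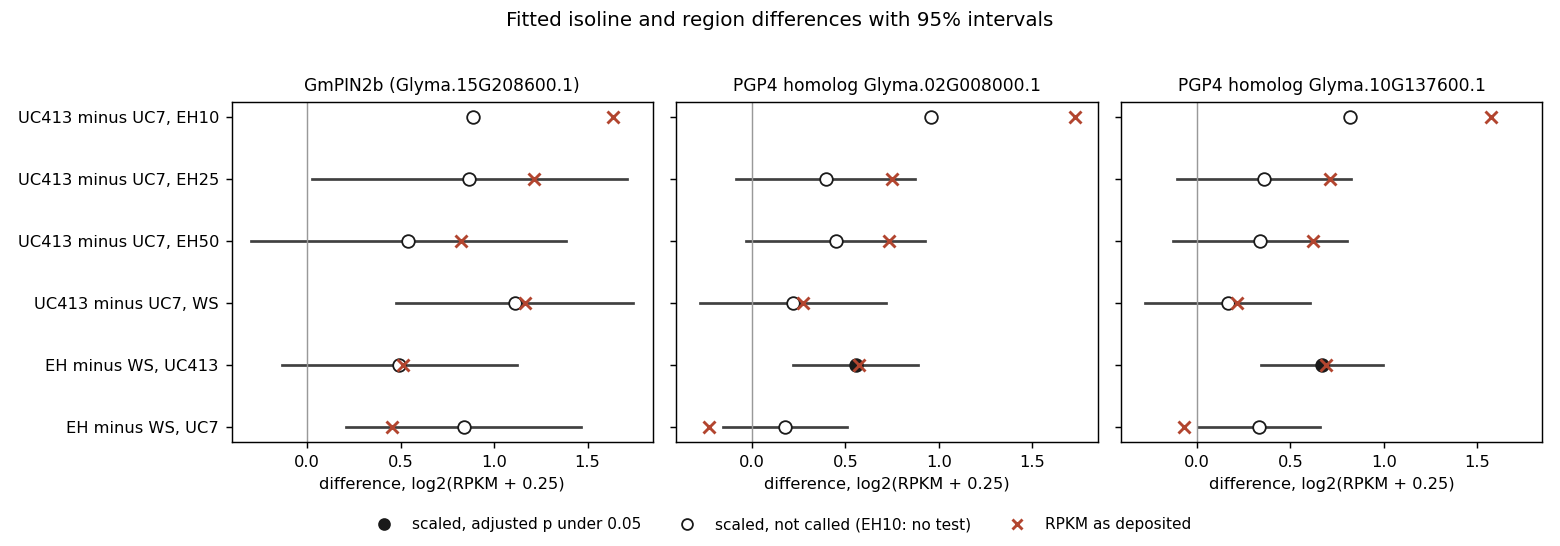
Fitted differences between isolines and between regions for each gene on the log2 scale (circles, with 95% intervals as lines), and the same differences on RPKM as deposited (crosses). The EH10 circles carry no interval because they are a description, and the filled circles mark the 2 differences with an adjusted p under 0.05, those of the PGP4 homologs between extended hilum and whole seed coat in UC413, which were not called with 25 and 50 mg libraries only.

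Within each isoline, a further question was how the transporters changed as the seed grew. None of the 3 was called for EH50 minus EH25 in either isoline. Differences of EH25 minus EH10 are a description with no test, because EH10 levels of both isolines entered the choice of the genes. In UC413 the PGP4 homologs stayed within 0.12 on the log2 scale from stage to stage: EH25 minus EH10 was -0.06 for Glyma.02G008000.1 and 0.03 for Glyma.10G137600.1 (SE 0.21 each), and EH50 minus EH25 was 0.12 and 0.0048. In UC7 EH25 minus EH10 was 0.50 for Glyma.02G008000.1 and 0.49 for Glyma.10G137600.1, and 0.82 and 0.79 without UC7 EH25 replicate 2. Over all models, 0.148% were called higher and 0.00695% lower at EH25 than at EH10 in UC7. In UC413 this step called 0 models with limma, and at an unadjusted p under 0.05 it had 2353 higher and 1006 lower. The later step in UC7, EH50 minus EH25, was 0.07 for Glyma.02G008000.1 and 0.02 for Glyma.10G137600.1.

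GmPIN2b had small differences at the earlier step and positive ones at the later step, but in UC413 the order of the steps turned on 1 library. EH50 minus EH25 was 0.52 in UC413 (SE 0.38, adjusted p = 0.482) and 0.85 in UC7 (SE 0.38, interval 0.0048 to 1.69, adjusted p = 0.359), while EH25 minus EH10 was 0.03 in UC413 and 0.04 in UC7. The later step passed in neither isoline. Without UC413 EH25 replicate 1 the earlier step in UC413 was 0.59 and the later one -0.04, and without UC413 EH25 replicate 2 they were -0.54 and 1.09. Over all models, 2.16% were called higher and 3.32% lower at EH50 than at EH25 in UC413, and 0.427% higher and 0.75% lower in UC7. From EH50 to EH100 scaled GmPIN2b was lower in UC7 (3.64 at EH100, against 4.50 and 7.18 at EH50) and slightly lower in UC413 (7.52 at EH100, against 8.21 and 8.66 at EH50), whereas both PGP4 homologs were higher at EH100 than in either EH50 library in both isolines. EH100 was a single library in each isoline, made with the non-stranded kit that EH50 replicate 1 also had.

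The comparison of regions asked whether the transporters were more abundant near the hilum than in the whole seed coat, which itself includes the hilum. In UC413 both PGP4 homologs were called higher in the extended hilum, in a fit whose UC413 extended hilum libraries include the 2 of EH10, the stage at which the genes were named. The difference averaged over 3 stages was 0.55 for Glyma.02G008000.1 (SE 0.15, interval 0.22 to 0.89, 1.47-fold, adjusted p = 0.0369) and 0.67 for Glyma.10G137600.1 (SE 0.15, interval 0.34 to 1.00, 1.59-fold, adjusted p = 0.0142). With 25 and 50 mg libraries only, which leave that stage out, the differences were 0.47 (adjusted p = 0.243) and 0.59 (adjusted p = 0.134) and neither was called, where 1.89% of all models were called higher and 0.655% lower. With all 3 stages, 6% of all models were called higher and 4.67% lower in the extended hilum in UC413. Both UC413 extended hilum libraries lay above the whole seed coat library at each of the 3 stages, by 1.68, 1.37 and 1.43-fold for Glyma.02G008000.1 and by 1.84, 1.45 and 1.62-fold for Glyma.10G137600.1 at 10, 25 and 50 mg. That pattern held for 15.9% of all models, GmPIN2b included (1.41, 1.79 and 1.27-fold).

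These calls also depended on the single whole seed coat libraries. Glyma.10G137600.1 was no longer called without UC413 WS10 (adjusted p = 0.105), UC413 WS25 (0.0507) or UC413 WS50 (0.0765). Glyma.02G008000.1 was no longer called without each of these 3 in turn (adjusted p = 0.209, 0.108 and 0.130) or without UC413 EH10 replicate 1 or 2, UC413 EH25 replicate 2 or UC413 EH50 replicate 1 (adjusted p = 0.0559 to 0.0801). The size of the difference stayed at 0.47 to 0.61 for Glyma.02G008000.1 and 0.59 to 0.75 for Glyma.10G137600.1 over all libraries left out. In UC413, phloem markers summed to 36.2 to 62.3 scaled RPKM over EH10 to EH50 and 41.6 to 63.1 in whole seed coats, and xylem markers to 198 to 658 over EH10 to EH50 and 92.9 to 396 in whole seed coats. By stage, xylem sums in UC413 were 209 and 198 at EH10 against 92.9 at WS10, and 262 and 408 at EH25 against 187 at WS25. They were 640 and 658 at EH50 against 396 at WS50. The phloem sum of the whole seed coat was within or above those of the extended hilum libraries at each stage. The part of these tissues in the region difference was not tested.

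In UC7 the PGP4 homologs differed less between regions, in a fit that likewise includes the EH10 libraries, the stage at which the genes were named. The limma differences were 0.18 for Glyma.02G008000.1 (SE 0.15, adjusted p = 0.431) and 0.33 for Glyma.10G137600.1 (SE 0.15, adjusted p = 0.125). At 25 mg the whole seed coat library lay between the extended hilum libraries for both genes. Without UC7 EH25 replicate 2 the difference of Glyma.10G137600.1 was 0.45 and was called (adjusted p = 0.0148). On RPKM as deposited both differences turned to the other side (-0.23 and -0.07), where the median over all models was -0.38. GmPIN2b in UC7 differed by 0.84 between extended hilum and whole seed coat (SE 0.29, interval 0.21 to 1.47, 1.79-fold, and 0.45 as deposited) and just missed the threshold (adjusted p = 0.0518, where 12.1% of all models were called higher and 11.6% lower). Leaving out 1 library at a time moved this difference between 0.53 and 1.29, and it passed in 4 of 18 such fits. Those gave 1.29 without UC7 WS10, 1.02 without UC7 EH10 replicate 2 and 0.84 without either UC413 EH25 library. With 25 and 50 mg libraries only, nearly the same comparison as without UC7 WS10, it was 1.29 and passed (limma adjusted p = 0.0228). That setting called 9.71% of all models higher and 8.02% lower in the extended hilum in UC7. By stage the ratio of extended hilum to whole seed coat for GmPIN2b in UC7 was 0.98 at 10 mg, 2.49 at 25 mg and 3.02 at 50 mg.

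GmPIN2b in UC413 differed by 0.49 between regions (SE 0.29, interval -0.13 to 1.12, adjusted p = 0.324). The region difference of UC413 minus that of UC7 was -0.35 for GmPIN2b (SE 0.41, adjusted p = 0.735), 0.38 for Glyma.02G008000.1 (SE 0.22, adjusted p = 0.452) and 0.34 for Glyma.10G137600.1 (SE 0.21, adjusted p = 0.492). EH10 libraries of both isolines are part of this contrast and entered the choice of the genes, so its values are not free of that choice. With 25 and 50 mg libraries only, the contrast called 0 of 58444 models with limma. So the PGP4 calls in UC413 do not show that the regions differ more in that isoline than in UC7. Over all models, 0.0636% were called for a more positive region difference in UC413 and 0.0117% for a more negative one.

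The PGP4 homologs followed each other closely. Over the 20 libraries the correlation of their log2 scaled levels was 0.98 (Pearson r, Spearman rho 0.95), and each was the gene most like the other among 33279 genes, with 1 model for each gene. This is a description over libraries that share isolines, stages and, for this pair, reads. The ratio of Glyma.02G008000.1 to Glyma.10G137600.1 in RPKM, which is per length of model, was 1.35 to 1.75 with a median of 1.52. In UC7 extended hilum libraries of EH10 to EH50 it was narrow, at 1.39 and 1.40 (EH10), 1.39 and 1.41 (EH25) and 1.43 and 1.45 (EH50), and UC413 libraries of these stages gave 1.35 to 1.58. The ratio reached 1.72 in UC7 at EH100 and 1.75 in UC413 at WS50.

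GmPIN2b followed a different course. Its correlation with Glyma.02G008000.1 was 0.39 (rho 0.49) and with Glyma.10G137600.1 it was 0.37 (rho 0.40), and among all genes ordered by their likeness to GmPIN2b, Glyma.02G008000.1 stood at rank 5768. The gene with the closest pattern to GmPIN2b was Glyma.14G034900.1, annotated as a calcium-dependent lipid-binding protein (r = 0.92 over 20 libraries). Next were Glyma.13G099600.3 (r = 0.92), with the heavy metal ATPase HMA2 as best hit, Glyma.08G150000.1 (0.91), a protein kinase, Glyma.03G143600.2 (0.90), a MYB-like regulator, and Glyma.03G007900.1 (0.90), with the cycling DOF factor CDF1 as best hit. Spearman's rho was 0.88 to 0.93 for these 5. The PGP4 pair shared Glyma.17G081800.1, with the DOF factor OBP4 as best hit, as a next most similar gene (r = 0.93 with Glyma.02G008000.1 and 0.94 with Glyma.10G137600.1). Glyma.08G201300.1, whose best hit is the ABC transporter ABCG36 (PEN3), was also close to Glyma.02G008000.1 (r = 0.93), as were Glyma.01G200500.2, an inositol polyphosphate phosphatase (0.93), and Glyma.19G018600.1, annotated as an AAA-type ATPase (0.92). For Glyma.10G137600.1 the remaining 3 were Glyma.03G117800.1 (0.91) and Glyma.10G096300.2 (0.905), both with no description, and Glyma.19G140400.1 (0.90), a zinc finger protein.

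**Figure D3:**
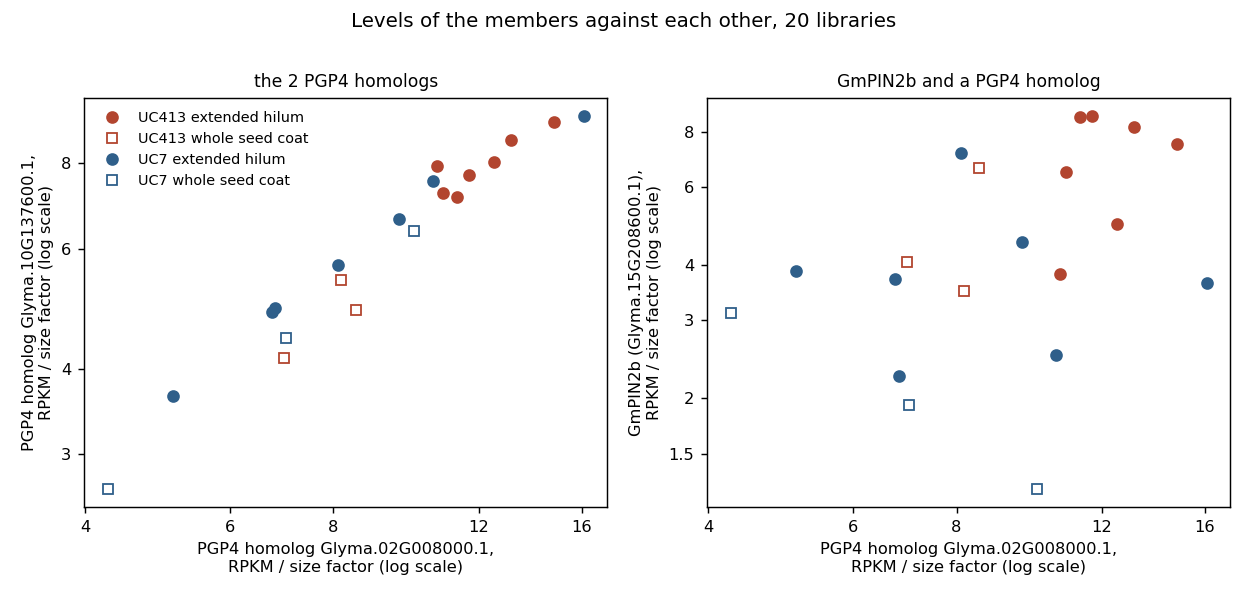
Scaled RPKM of the genes against each other in 20 libraries on log axes, with UC413 in red and UC7 in blue, extended hilum as filled circles and whole seed coat as open squares. The PGP4 homologs lie along 1 line from UC7 WS10 (4.26 and 2.67) to UC7 EH100 (16.1 and 9.36), while GmPIN2b shows no such line against Glyma.02G008000.1.

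The other auxin transport genes were listed by their best Arabidopsis hit, and most of those called between isolines were lower in UC413. Of 127 listed genes outside the 3, 66 were tested in the extended hilum: 9 of the PIN family, 8 of the PIN-like PILS family, 19 ABCB transporters, 12 AUX1/LAX importers and 18 regulators of these carriers. At EH10, 0 were called higher and 7 lower in UC413, against 3.95% and 2.41% of all models, and the median difference was -0.22 where that of all models was -0.0195. On RPKM as deposited 28 of the 66 were called higher and 1 lower at EH10, where 63.7% of all models were called higher and 0.651% lower. With the replicate number as a block the calls lower at EH10 were 15, and at an unadjusted p under 0.05 there were 3 higher and 23 lower without it. At EH25, 0 were called higher and 4 lower (median -0.14), against 1.46% and 0.747% of all models, and 2 were higher and 12 lower at an unadjusted p under 0.05 in limma. At EH50, 2 were called higher and 10 lower (median -0.11), against 4.41% and 3.66% of all models, where stranded libraries only, which leave 1 library for each isoline at EH50, called none. In whole seed coats 0 of 61 tested were called by limma in either direction, and 0 were higher and 2 lower at an unadjusted p under 0.05.

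The called genes came from 3 of the lists. Of the AUX1/LAX importers, 4 of 12 fell in UC413 at EH10, where all 12 lay below 0 with a median of -0.78, while 3 fell at EH25 and 5 at EH50. Glyma.02G255800.1, a homolog of the auxin importer AUX1, averaged 9.81 ± 0.58 RPKM in UC413 and 14.2 ± 2.17 RPKM in UC7 at EH10 (SD, n = 2 each), without overlap, and its scaled difference was -1.31 (SE 0.14, limma adjusted p = 0.0012). Its difference was -1.13 at EH25 and -1.53 at EH50 (adjusted p = 0.0056 and 0.0016). The LAX3 homologs Glyma.04G252300.1 and Glyma.06G110200.1 were also called lower at all 3 stages, with differences of -0.98 to -1.35 and of -0.997 to -1.60.

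Among the PIN genes, 3 of 9 fell in UC413 at EH10, 1 at EH25 and 5 at EH50. The median over these 9 genes was -0.82, -0.47 and -0.94 at the same stages. GmPIN2b had positive differences of 0.89, 0.87 and 0.54 at EH10, EH25 and EH50, of which EH10 was not tested and the others did not pass.

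Of the ABCB genes, 0 were called by limma at EH10 or EH25 (at an unadjusted p under 0.05, 3 higher and 3 lower at EH10, 2 higher and 1 lower at EH25), and 2 of 19 were called higher in UC413 at EH50. They were Glyma.08G270300.1, a PGP2 homolog, with 1.26 ± 0.27 RPKM in UC413 and 0.122 ± 0.034 RPKM in UC7 (SD, n = 2 each) and a scaled difference of 1.80 (SE 0.27, adjusted p = 0.0083), and Glyma.08G342600.1 (0.75, adjusted p = 0.0350). Both PGP4 homologs had smaller differences than these at EH50. At EH10 none of the 66 listed genes had as large a positive difference as any of the 3 transporters, which were chosen at that stage. In whole seed coats, which the choice did not use, none of 61 lay above GmPIN2b (1.11), with Glyma.03G113600.2 the highest of them at 0.44, while 4 lay above Glyma.02G008000.1 and 7 above Glyma.10G137600.1. None of the PILS genes or of the regulators was called between isolines in any of these comparisons.

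**Figure D4:**
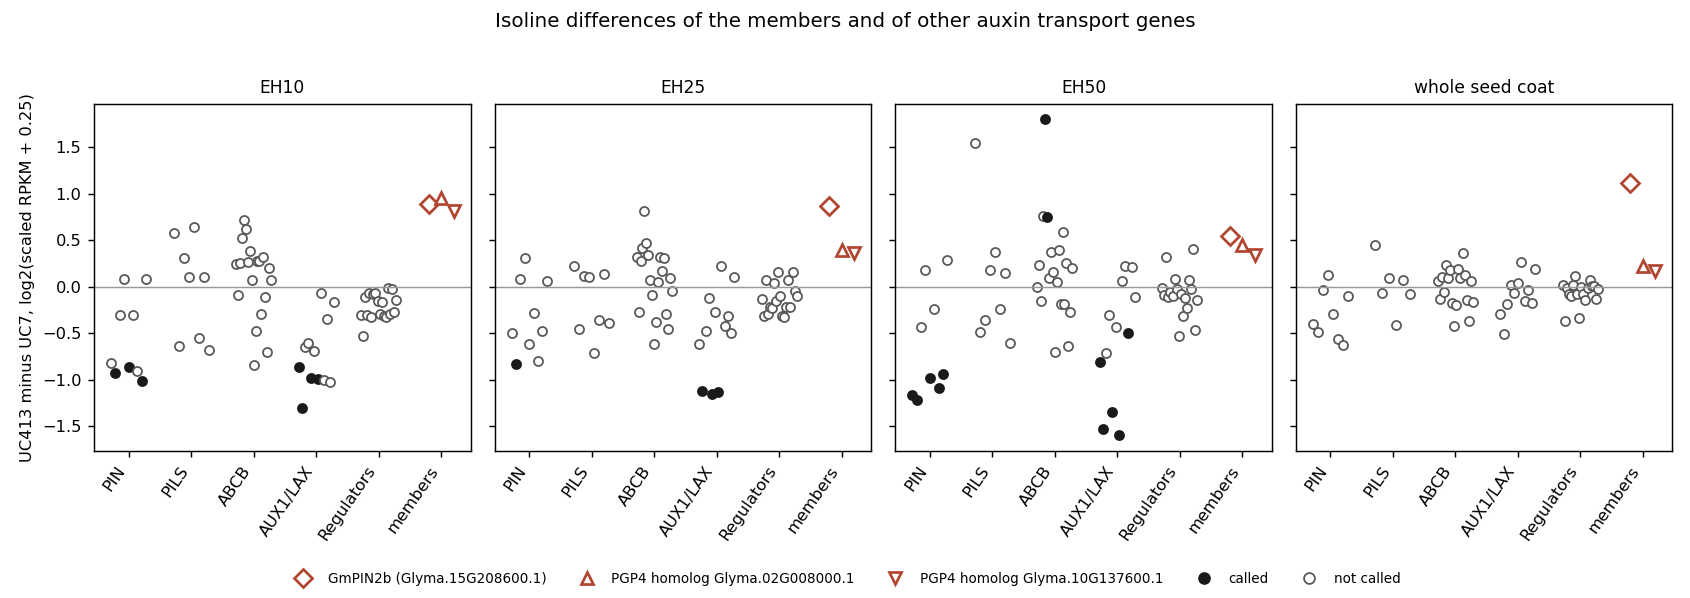
Isoline differences (UC413 minus UC7, log2 of scaled RPKM + 0.25) of other auxin transport genes by list at EH10, EH25, EH50 and in whole seed coats, filled where the adjusted p was under 0.05, with the 3 transporters in red at the right of each panel. Called PIN and AUX1/LAX genes lie below 0 at each extended hilum stage, as low as -1.60 at EH50, and the 3 transporters lie above 0 in every panel.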

How the data were processed

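The authors aligned single reads with Bowtie to 88647 Glyma models (Wm82.a2), allowing 3 mismatches and 25 alignments per read, and deposited RPKM for each of 20 libraries, which were not pooled. EH50 replicate 1, EH100 and WS50 of both isolines had a non-stranded kit and the others a stranded kit. RPKM multiplied by transcript length was, for 100% of the models (tolerance 0.01), a whole multiple of the smallest such value in its library, which was taken as 1 alignment.

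The members and lists were chosen with earlier results of these data known. Scaled RPKM (median-of-ratios size factors) plus 0.25 was put on the log2 scale and tested by limma 3.58.1 with a trended prior in R 4.3.3. Isolines and stages used 12 extended hilum libraries in 6 groups, whole seed coats 6 libraries with stage as a term, and regions 18 libraries. Models with RPKM of at least 1 in at least 2 libraries were tested, with Benjamini-Hochberg adjustment over the tested models. A call is an adjusted p under 0.05.

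Same-numbered libraries of both isolines deviated together in part (correlations 0.193 at EH10, 0.226 at EH25 and 0.468 at EH50). The labels do not say that the numbers pair libraries, and at EH50 the numbers also follow the kit. The differences reported have no replicate block, and a block was run as 1 of the other settings. Other settings were no size factors (RPKM as deposited), equal totals of alignments outside ribosomal DNA, other pseudocounts (1 and 0.05) and filters (none, and RPKM 2), size factors over 20 libraries, the library kit, the replicate block and each library left out. Added after seeing the data were limma-voom on the alignments, stranded libraries only and, between regions, 25 and 50 mg libraries only. The text names the 3 genes, genes that share their best Arabidopsis hit, up to 3 called genes of each list and comparison by size (single called PIN genes are not reported here), and the 5 genes most correlated with each member. Figures were drawn with matplotlib 3.10.9.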

Additional observations from a re-analysis of the deposited data

Results flagged for a closer look

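The PGP4 homologs were lower in UC413 in 2 pairs of single libraries, on the opposite side to the other tissues. At WS25 the log2 ratio of UC413 to UC7 was -0.29 for Glyma.02G008000.1 and -0.24 for Glyma.10G137600.1 after scaling, and at EH100 it was -0.12 and -0.026, against positive ratios at EH10, EH25, EH50, WS10 and WS50. The difference between these tissues was not tested, because WS25 and EH100 had 1 library for each isoline. As deposited, the EH100 ratios were on the other side (0.04 and 0.14), and the WS25 ratios were -0.30 and -0.25.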

How the results depend on the processing

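No fitted difference of the 3 transporters that was called changed sign under any alternative. Those called were the region differences of the PGP4 homologs in UC413. Most alternatives refit the same libraries, EH10 included, so a kept sign says little. Of 28 alternatives, 18 kept the call of Glyma.02G008000.1 and 23 that of Glyma.10G137600.1. On RPKM as deposited the EH10 differences were 1.64 for GmPIN2b, 1.73 for Glyma.02G008000.1 and 1.57 for Glyma.10G137600.1. GmPIN2b at EH25 was called (1.21), where 3.68% of all models were called higher and 0.499% lower. The region difference of Glyma.02G008000.1 in UC413 (0.57) was not called on that scale. With stranded libraries only, the whole seed coat difference of GmPIN2b was 0.84, from WS10 and WS25 alone as without either WS50 library. The region differences in UC413 were not called with that setting (0.58 for Glyma.02G008000.1 and 0.68 for Glyma.10G137600.1). With 25 and 50 mg libraries only, these were not called either (0.47 and 0.59), and GmPIN2b was called between regions in UC7 (1.29). In UC7 that setting called 9.71% of all models higher and 8.02% lower in the extended hilum. A pseudocount of 0.05 called the region difference of GmPIN2b in UC7 (0.90), where 12.3% of all models were called higher and 11.4% lower.

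With each library left out in turn, GmPIN2b (Glyma.15G208600.1) ranged from 0.84 to 1.49 in whole seed coats and from 0.53 to 1.29 between regions in UC7. Glyma.02G008000.1 ranged from 0.19 to 0.82 for EH25 minus EH10 in UC7 and from 0.47 to 0.61 between regions in UC413. Glyma.10G137600.1 ranged from 0.19 to 0.79 for EH25 minus EH10 in UC7, from 0.59 to 0.75 between regions in UC413 and from 0.19 to 0.53 between regions in UC7. Where this left 1 library in a group, it was taken to vary like the other groups.

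With the replicate block within each stage no call of a transporter changed, and the adjusted p of GmPIN2b at EH25 was 0.0665 for the same difference of 0.87. The block raised the other auxin transport genes called lower at EH10 to 15, where 7 were called without it. Leaving out 1 library moved that count between 1 (without UC413 EH10 replicate 1) and 12 (without either UC7 EH25 library), the count at EH25 between 1 (without either UC413 EH25 library) and 5, and that at EH50 between 1 (without UC413 EH50 replicate 1 or UC7 EH50 replicate 2) and 15. Stranded libraries only called 3 lower at EH10, 1 at EH25 and 0 at EH50.

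Over all models, RPKM as deposited called 36670 higher and 375 lower in UC413 at EH10, where scaled values called 2276 and 1387. Groups of 2 libraries and single whole seed coat libraries limit every comparison here, and depth does not, since each level rested on 246 alignments or more.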
